A study of Eisenia fetida with 6 samples.

Results

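The contigs that dominated the intestine of unexposed Eisenia fetida, a compost-dwelling earthworm used in soil toxicology, were followed into worms exposed to tri-n-butyl phosphate (TnBP). This phosphoric acid ester serves as a plasticizer, a solvent and a flame retardant. A contig is an assembled transcript sequence, and 55641 of them had a value in some library. Those taking on average at least 0.1% of the expected counts of the 3 control libraries were chosen, which gave 79 contigs, or 0.142% of all. Control values therefore chose these contigs, and every control share, control rank and difference from control below is a description that tests nothing. The design compared adult worms of a control group with worms given 10 mg/kg TnBP, both kept for 14 days at 20 °C in the dark in artificial soil. A library was made from 3 worms' intestines, and each group had 3 libraries from 9 worms. A container held 10 worms, and the labels name neither the container of a pool nor a solvent for the controls. The p-values therefore reflect only how much pools vary, and pools may share a container.

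The intestine of an earthworm is a tube of epithelium that secretes digestive enzymes and takes up nutrients, with muscle, blood vessels and chloragogenous tissue around it. In such a secretory tissue a few messenger RNAs, or leftover ribosomal and mitochondrial RNAs, can fill much of a library. Shares of a library add up to a fixed total, so a lower share of some contigs always leaves a higher share to the rest. The identifiers come without gene names or sequences. For that reason the 79 contigs are described by identifier, length, level and spread, with no function given, no marker of the tissue could be looked up, and no sequence is shown. Every identifier ends in _Eisenia_Fetida in the tables, which is left out here. Of the 79, 53 were single unigenes and 26 were CL contigs, whose CL number names an assembly cluster.

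Libraries held 8435554 to 9643939 expected counts, and the labels give no sequencing or extraction batch. In the control libraries every one of the 79 had at least 7978 counts. The coefficient of variation that counting error alone would give, from a contig's mean control count, was 0.112% to 1.05%. All levels come from whole intestines, in which fewer cells of a type and less RNA per cell cannot be told apart. A share of counts grows with contig length. Levels of different contigs are therefore compared in FPKM, the deposited value scaled for contig length and library depth.

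Together the 79 contigs took about 7 in 10 counts of a control intestine and about 5 in 10 of an exposed one. Their summed share was 70.3%, 68.4% and 70.1% in the control libraries and 50.5%, 51.4% and 51.3% in the TnBP libraries. The groups did not overlap, and the means were 69.6% ± 1.05 and 51.1% ± 0.489 (SD, n = 3). In summed FPKM the same contigs held 68.8% ± 1.21 and 50.8% ± 0.490. All remaining contigs went from 30.4% ± 1.05 to 48.9% ± 0.489 of the counts, a 1.61-fold higher share. The 5 first-ranked contigs accounted for 61.7% of the net difference of the 79, and the first 10 for 73.3%. Contigs with a lower mean share numbered 65, and their shares dropped by 21.5 percentage points in sum. The 14 contigs with a higher mean share gained 2.98 points.

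**Figure D1:**
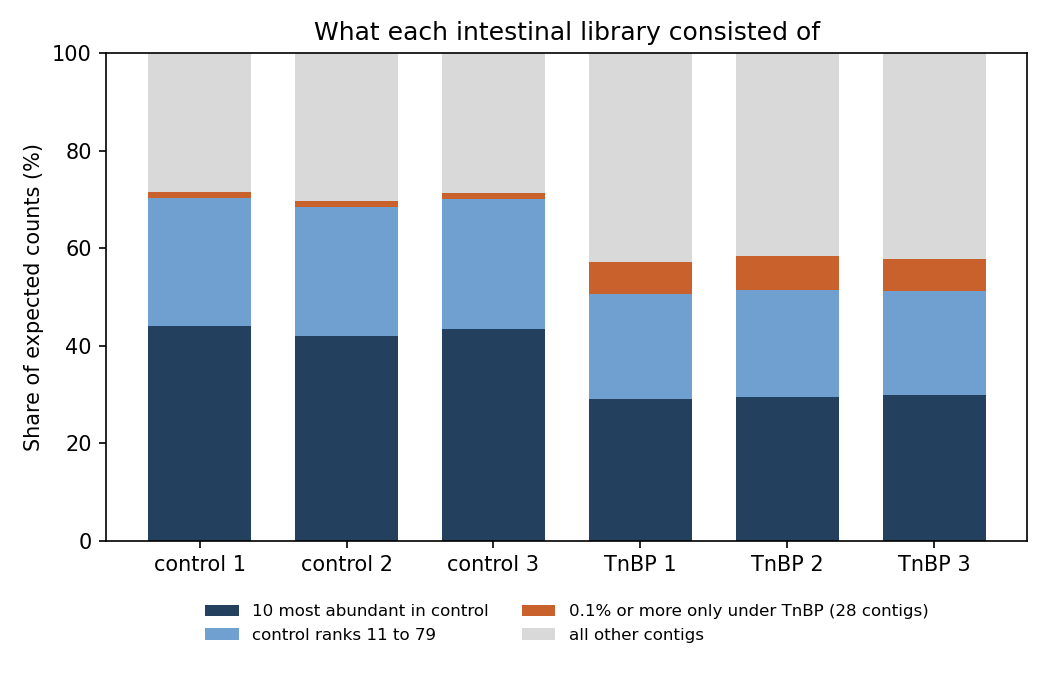
Stacked bars give the share of expected counts (%, from 0 to 100) in each of the 6 libraries for the 10 most abundant control contigs, for control ranks 11 to 79, for the 28 contigs that reached 0.1% only under TnBP, and for all others. The 2 lower segments together reach 68.4% to 70.3% in control libraries and 50.5% to 51.4% in TnBP libraries.

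Single contigs followed the same direction in most cases. Every TnBP library lay below every control library for 57 of the 79 shares, against 12.5% of all 25353 tested contigs, and above for 12, against 58.0% of all. For 10 contigs the groups overlapped. Of the 79, edgeR's quasi-likelihood test with TMM scaling, which sets the typical contig to no change, called 70 lower and 6 higher after TnBP (Benjamini-Hochberg adjusted p under 0.05), while 24.5% of all tested contigs were called lower and 24.1% higher. With library totals as the scale, the test called 58 lower and 13 higher, against 11.2% and 54.2% of all tested contigs. DESeq2 also called 70 lower and 6 higher, against 20.4% and 19.1% of all, and limma on log2(FPKM + 1) called 54 lower and 13 higher, against 8.18% and 43.0%. The contigs were chosen on control counts, so these numbers are not evidence of a direction. The median log2 fold change of the 79 was -1.37 with TMM and -0.59 with library totals, against 0.01 and 0.79 over all tested contigs. The 79 contigs at the next control ranks had medians of -1.41 and -0.63, with 64 lower and 6 higher under TMM, so the values of the 79 lay close to those of the contigs ranked just after them. Under both scalings 58 of the 79 were called lower and 6 higher. The share of all tested contigs called the same way under both was not counted. For Unigene11320, Unigene6631, Unigene41687 and Unigene25953 the direction turned, lower with TMM and higher with library totals.

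A control library that took no part in the choice gave similar counts. Contigs chosen in 2 control libraries numbered 79 to 81. In the control library left out, 60 to 65 of them lay above all 3 TnBP libraries, 13 or 14 lay below all 3, and 1 to 6 lay between. Their summed share in the left-out library was 68.5% to 70.3%, against a TnBP mean of 51.1% to 52.4%. The left-out library was still a control, and control counts still chose the contigs. These numbers are therefore no evidence of a direction. How many of all tested contigs lay this way in a single control library was not counted.

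The threshold fell in a dense part of the ranking. Just inside stood Unigene25953 with a mean control share of 0.106%, CL1059.Contig1 with 0.103% and Unigene4058 with 0.103%. Just outside stood CL1700.Contig1 with 0.09997%, CL59.Contig1 with 0.0998% and CL2804.Contig1 with 0.0992%. The standard deviations of these 6 were 0.00111 to 0.00966 percentage points, so which contigs fall on which side rests on small differences. All 3 control libraries reached 0.1% for 77 of the 79. The exceptions were Unigene9268, at 0.0887% in control 2, and Unigene4058, at 0.0974% in control 1.

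**Figure D2:**
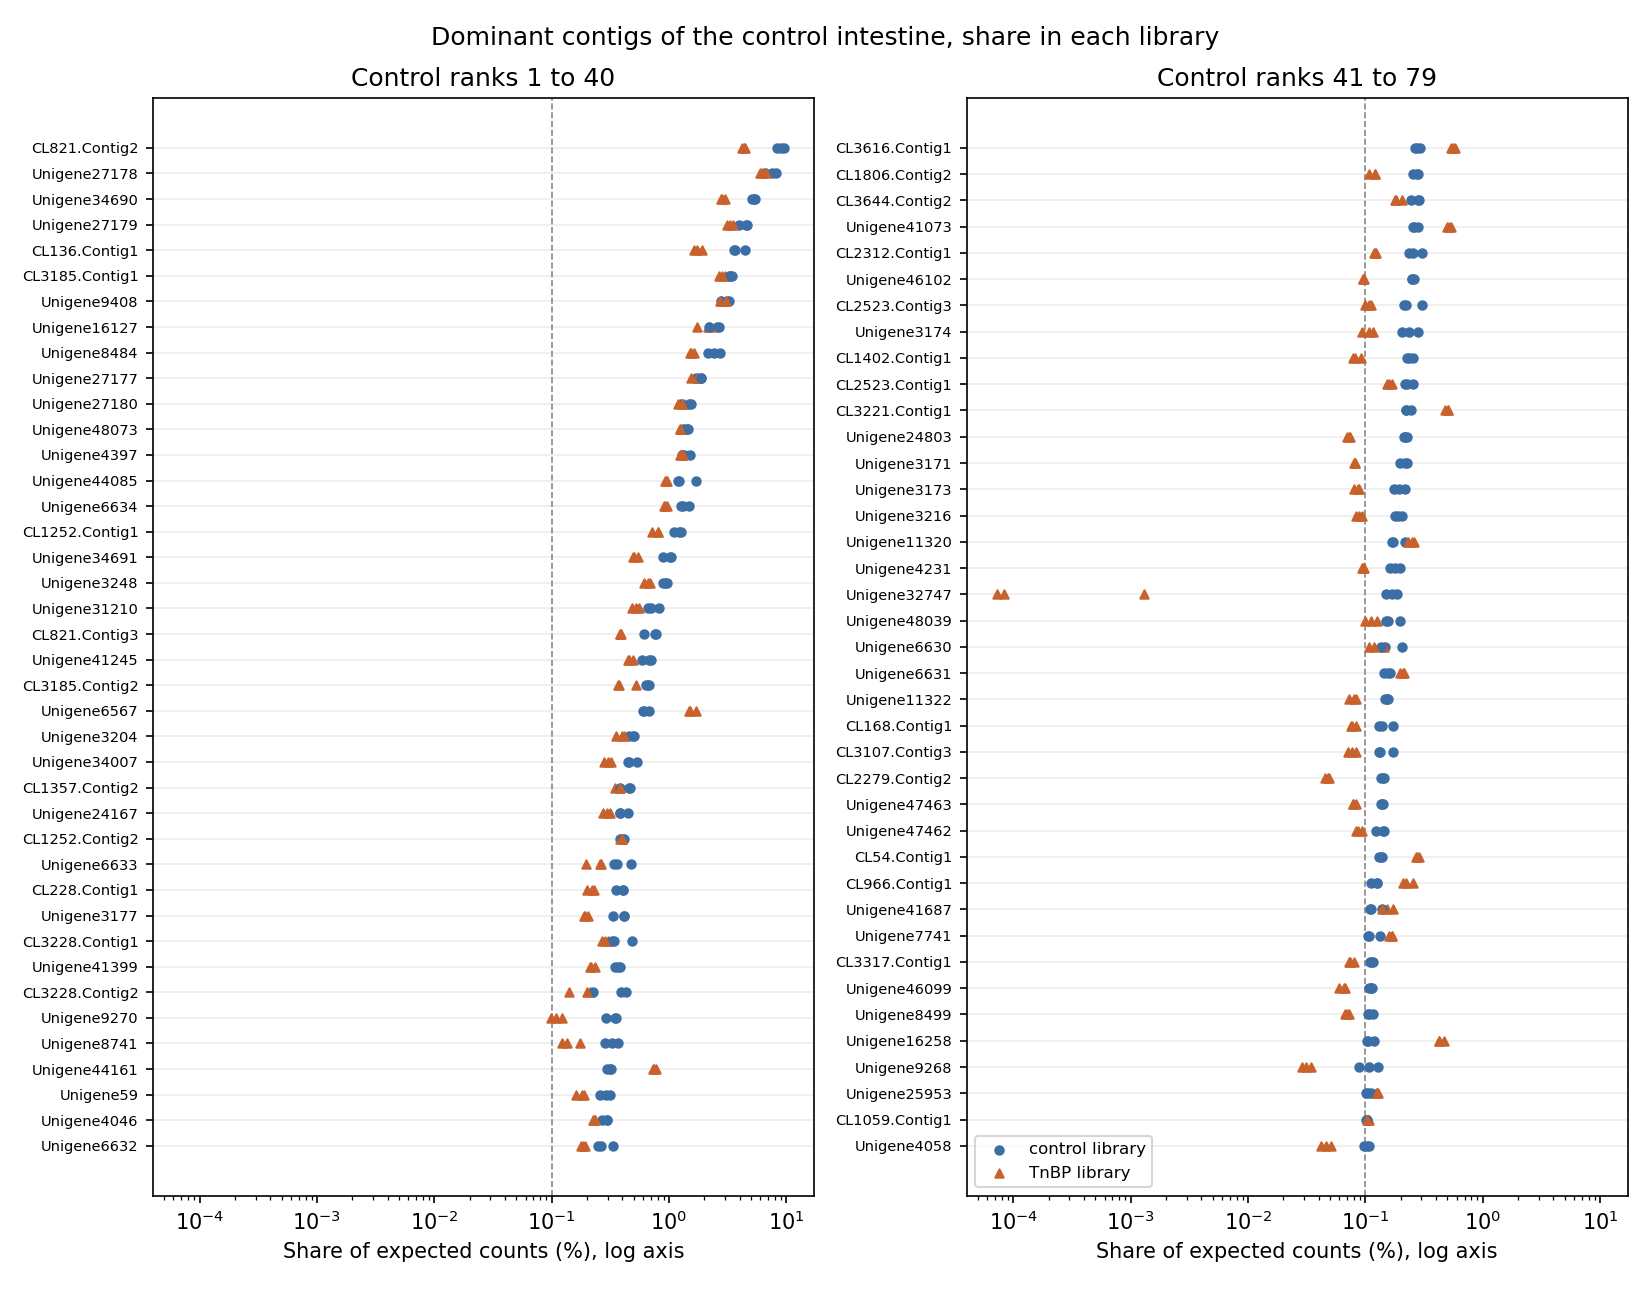
Share of expected counts (%, log axis) of each of the 79 contigs in the 3 control libraries (circles) and the 3 TnBP libraries (triangles), ordered by mean control share, with the 0.1% threshold as a dashed line. Triangles lie left of all circles for 57 contigs and right of all circles for 12, and Unigene32747 stands far to the left under TnBP.

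CL821.Contig2, 861 bases long, held rank 1 in every control library. Its shares were 9.06%, 8.39% and 9.49% in control and 4.35%, 4.17% and 4.45% after TnBP. It stood at rank 2 in all 3 TnBP libraries, with 48.1% of its control share left. In FPKM its level was 104775 ± 6499 in control and 50589 ± 1594 after TnBP (SD, n = 3), and its TMM-scaled log2 fold change was -1.83 ± 0.096 (SE, edgeR adjusted p = 5.6e-08).

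Unigene27178, 1567 bases, took over rank 1 by share in all 3 TnBP libraries although its own share was also lower on average. By FPKM CL821.Contig2 stood at rank 2 in both groups and Unigene27178 at rank 4 in both. Its shares were 8.22%, 6.61% and 7.55% in control and 5.90%, 6.15% and 6.70% after TnBP. The highest TnBP library lay above the lowest control library, so the groups overlapped, and its FPKM was 46888 ± 5100 and 39414 ± 2563. Its TMM-scaled log2 fold change was -1.03 ± 0.11 (edgeR adjusted p = 2.0e-05), and with library totals it was -0.25 (adjusted p = 0.035).

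Unigene34690, only 463 bases long, had the highest FPKM of all contigs in both groups. Its level was 119312 ± 4407 in control and 64998 ± 2531 after TnBP (SD, n = 3). As a share it held 5.07%, 5.45% and 5.34% in control and 2.84%, 2.78% and 3.0% after TnBP, without overlap. By mean share it moved from rank 3 to rank 4, although it stood at rank 5 in each TnBP library.

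Unigene27179, 802 bases, went from rank 4 to rank 3. Its shares were 4.6%, 3.98% and 4.53% in control and 3.13%, 3.33% and 3.49% after TnBP, so the groups lay apart but close together. CL136.Contig1, 6365 bases and the longest of the first 10, took 3.57%, 4.40% and 3.65% in control and 1.65%, 1.91% and 1.72% after TnBP. It kept 45.5% of its control share, the lowest portion among the first 25, and went from rank 5 to 8. Spread over its length, this contig's level was modest, with an FPKM of 5888 ± 701 in control, rank 22 by FPKM, and 2685 ± 212 after TnBP.

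Of the contigs at control ranks 6 to 10, all but Unigene8484 kept at least 82.7% of their control share. CL3185.Contig1, 1501 bases, took 3.22%, 3.32% and 3.41% in control and 2.98%, 2.84% and 2.69% after TnBP, with rank 6 by mean share in both groups. Its ranks in the TnBP libraries were 4, 4 and 6, so the sixth place of the mean rests on TnBP 3. Unigene9408, 2482 bases, took 3.25%, 2.80% and 3.13% against 2.78%, 2.70% and 3.03%, overlapping, and went from rank 7 to 5. Neither differed by more than 0.5 percentage points in mean share. Unigene16127, 706 bases, took 2.68%, 2.54% and 2.20% in control and 2.17%, 2.25% and 1.72% after TnBP, where TnBP 3 stood apart from the other 2 pools. Unigene27177, 1109 bases, took 1.88%, 1.71% and 1.87% against 1.78%, 1.73% and 1.54%, again with overlap. Unigene8484, 1754 bases, was lower without overlap, at 2.40%, 2.74% and 2.17% in control and 1.51%, 1.64% and 1.54% after TnBP. It was the 1 contig of the control top 10 to leave the TnBP top 10, going from rank 9 to 11 by mean share. In TnBP 3 it stood at rank 10, and without TnBP replicate 2 all 10 stayed in the first 10.

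Next came a run of contigs of 1.2% to 1.4% in control. Unigene27180, 1546 bases, took 1.53%, 1.27% and 1.48% in control and 1.34%, 1.20% and 1.28% after TnBP. Unigene48073, 1722 bases, took 1.44%, 1.33% and 1.43% against 1.30%, 1.24% and 1.23%. Unigene4397, 1150 bases, took 1.33%, 1.28% and 1.51% against 1.29%, 1.25% and 1.33%. These 3 kept 89.4%, 89.6% and 93.7% of their control share, and with library totals edgeR called none of them (adjusted p = 0.15, 0.092 and 0.37), whereas TMM scaling called all 3 lower, with log2 fold changes from -0.94 to -0.87. Unigene6634, 1628 bases, went from 1.35% ± 0.111 to 0.930% ± 0.0325 (SD, n = 3), and CL1252.Contig1, 1724 bases, from 1.19% ± 0.0935 to 0.778% ± 0.05, both without overlap.

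Unigene44085, 330 bases, owed part of its control mean to 1 pool. Control 1 held 1.69% and the other control libraries 1.22% and 1.20%, while the TnBP libraries held 0.936%, 0.930% and 0.966%. All TnBP values lay below all control values. In FPKM it was the fifth contig of both groups, at 44884 ± 9032 and 31035 ± 633.

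Ranks 17 to 25 lay between 0.48% and 0.98% in control. Unigene34691, 943 bases, went from 0.979% ± 0.0848 to 0.512% ± 0.0279 (SD, n = 3), and CL821.Contig3, 336 bases, from 0.719% ± 0.0881 to 0.384% ± 0.00742. They kept 52.3% and 53.4% of their control share. Unigene3248, Unigene31210 and Unigene41245, of 2188, 1711 and 1558 bases, went from 0.925% to 0.657%, from 0.726% to 0.521% and from 0.655% to 0.465%, keeping 71.1%, 71.8% and 70.9%. Unigene3204 kept 80.6% of 0.482% and Unigene34007 kept 62.4% of 0.481%. All 7 were lower without overlap between the groups.

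Unigene6567, 2722 bases, was the exception among the first 25. Its shares were 0.609%, 0.670% and 0.606% in control and 1.52%, 1.70% and 1.49% after TnBP. All 3 TnBP libraries lay far above the control libraries, and the contig climbed from rank 23 to 10 by mean share, with ranks 10, 10 and 11 in the TnBP libraries. Its FPKM was 2250 ± 130 in control and 5643 ± 418 after TnBP, and its log2 fold change was 0.55 ± 0.094 with TMM (edgeR adjusted p = 0.00049) and 1.33 with library totals. With this entry, the 10 most abundant contigs under TnBP were all among the 79.

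**Figure D3:**
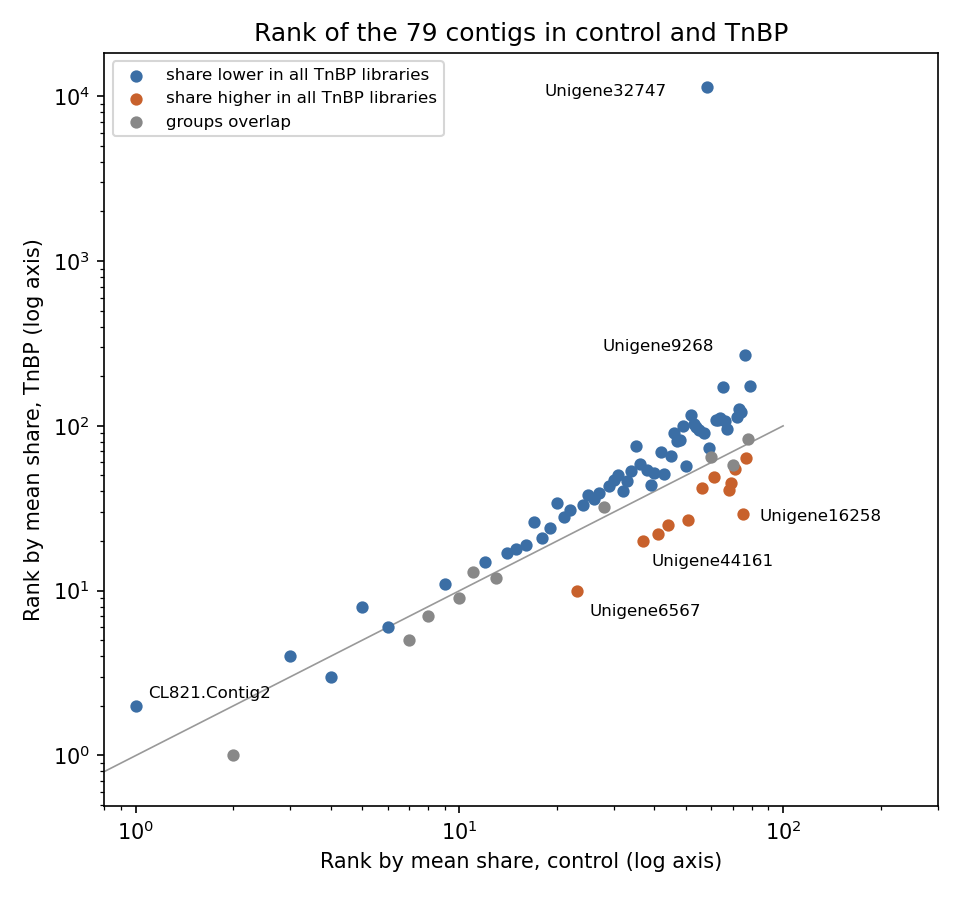
Rank by mean share of counts in control (horizontal) and TnBP (vertical), both on log axes, for the 79 contigs, with equal ranks on the line and colours for whether the TnBP libraries lay below, above or among the control libraries. Points near the line at ranks 1 to 10 show the order kept at the top, Unigene6567 and Unigene16258 lie below the line, and Unigene32747 lies at rank 11349 by its mean TnBP share.

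The first 10 were largely kept and wider sets less so, with a similar portion kept from the first 30 to the first 100. Of the first 10 control contigs 9 were also among the first 10 under TnBP, of the first 20 it was 16, and of the first 30 it was 21. Of the first 50 it was 37, of the first 79 it was 57, and of the first 100 it was 70. By FPKM the numbers were 9, 17, 23, 39, 56 and 72. Among the 79, 59 moved down in rank, 19 moved up and 1, CL3185.Contig1, stayed by mean share, and 23 moved down by at least 25 places. Spearman's rho between the 2 rankings was 0.84 over the 79 contigs, which share the same libraries, and is given as a description.

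Under TnBP 60 of the 79 kept a mean share of at least 0.1%, and 56 did so in every TnBP library. The 19 that dropped under it were below in each TnBP library, and their control shares had been 0.103% to 0.253%. Their median length was 3799 bases, against 1598 for all 79 and 1784 for control ranks 26 to 79. Contigs of like control share that stayed above the threshold were not compared with them in length. The longest of the 79, Unigene46102 with 9698 bases, was among the 19 that dropped, at 0.248%, 0.259% and 0.251% in control and 0.0953%, 0.0968% and 0.0955% after TnBP. Its libraries were also the tightest within TnBP, with a coefficient of variation of 0.839%. CL1402.Contig1, 6184 bases, went from 0.239% ± 0.0134 to 0.0846% ± 0.00711 (SD, n = 3) and from rank 49 to 100. Unigene24803, 4167 bases, went from 0.219% ± 0.00568 to 0.0718% ± 0.00246, and CL2279.Contig2, 4464 bases, from 0.141% ± 0.0042 to 0.0474% ± 0.00176. Neither pair of groups came near to overlapping.

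Unigene32747, 777 bases, was the 1 dominant contig that almost vanished. It held 0.169%, 0.150% and 0.188% of control counts, rank 58, with 14279, 13505 and 17074 expected counts. The TnBP libraries held 7, 8 and 124 counts, shares of 7.26e-05%, 8.34e-05% and 0.00131%, with ranks of 32131, 29024 and 5607. Its rank by mean share, 11349, rests on the 124 counts of TnBP 3. The exact (Clopper-Pearson) 95% intervals, which cover counting error only, were 2.92e-05% to 0.00015%, 3.6e-05% to 0.000164% and 0.00109% to 0.00156%, so TnBP 3 differed from the other 2 pools beyond counting error. Its FPKM was 2196 ± 243 in control and 6.35 ± 9.23 after TnBP. The TMM-scaled log2 fold change was -9.22 ± 0.66 (edgeR adjusted p = 6.1e-07), and without TnBP replicate 3 it was -11.83. No other contig of the 79 kept under 25% of its control share.

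The next steepest differences were milder by far. Unigene9268, 311 bases, went from 0.127%, 0.0887% and 0.107% in control to 0.0313%, 0.0288% and 0.0344%, and from rank 76 to 269. Its log2 fold change was -2.55 ± 0.14 with TMM (edgeR adjusted p = 8.0e-08). Unigene9270, 912 bases, went from 0.290%, 0.350% and 0.354% to 0.108%, 0.123% and 0.0979%, with a log2 fold change of -2.36 ± 0.12. Unigene24803 and CL2279.Contig2, above, had -2.38 and -2.35, CL1402.Contig1 -2.27, and Unigene46102 and Unigene3171 both -2.17. For all of these every TnBP library lay below every control library, and with library totals they ranged from -1.77 to -1.39.

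Unigene16258, 2408 bases, had the largest ratio of TnBP to control share among the 79, while Unigene6567 and Unigene44161 gained more in percentage points, 0.942 and 0.440 against 0.331. Its shares were 0.103%, 0.119% and 0.105% in control and 0.425%, 0.469% and 0.428% after TnBP, 4.03 times the control mean. It climbed from rank 75 to 29, and its FPKM was 443 ± 35.4 in control and 1791 ± 101 after TnBP. The log2 fold change was 1.24 ± 0.091 with TMM (edgeR adjusted p = 7.0e-07) and 2.02 with library totals.

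Unigene44161, 4120 bases, took 0.296%, 0.323% and 0.312% in control and 0.730%, 0.776% and 0.745% after TnBP, moving from rank 37 to 20. CL3221.Contig1, 1598 bases, took 0.223%, 0.245% and 0.223% against 0.476%, 0.507% and 0.504%, and moved from rank 51 to 27. In both, the groups lay well apart and the log2 fold change was called higher with TMM, at 0.50 ± 0.082 and 0.33 ± 0.082 (edgeR adjusted p = 0.00036 and 0.0056). CL54.Contig1, 2852 bases, went from 0.135% ± 0.00412 to 0.278% ± 0.00935 (SD, n = 3), and CL3616.Contig1, 904 bases, from 0.278% ± 0.0131 to 0.558% ± 0.0217. Their shares were 2.06 and 2.01 times the control values, and with TMM their log2 fold changes were 0.27 and 0.23 (edgeR adjusted p = 0.019 and 0.048). Those TMM calls were lost without control replicate 1, without control replicate 2 or without TnBP replicate 2 for CL54.Contig1, where values ran from 0.21 to 0.24, and without any 1 library for CL3616.Contig1, where they ran from 0.16 to 0.26. Unigene41073, 1401 bases, and CL966.Contig1, 2201 bases, took 1.95 and 1.89 times their control share, and with TMM they were not called, at 0.19 ± 0.083 and 0.15 ± 0.10 (edgeR adjusted p = 0.078 and 0.25).

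Some contigs hardly moved in share. CL1252.Contig2, 1755 bases, took 0.384%, 0.413% and 0.407% in control and 0.397%, 0.383% and 0.394% after TnBP. CL1059.Contig1, 1238 bases, took 0.103%, 0.102% and 0.104% against 0.105%, 0.108% and 0.103%. Groups overlapped for both, and the library-total log2 fold changes were -0.03 and 0.04 (edgeR adjusted p = 0.74 and 0.60), whereas with TMM both were called lower at -0.81 and -0.74. Unigene25953, 8174 bases, stood at 0.102%, 0.111% and 0.105% in control and a little higher, 0.123%, 0.126% and 0.128%, after TnBP. It had the lowest FPKM of the 79 in control, 125 ± 6.0.

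Contigs with adjoining unigene numbers were frequent among the 79, a pattern looked at after the values had been seen. A unigene number 1 above or below that of another of the 79 was carried by 15 of 53 unigenes, or 28.3%, and by 0 of the 46 unigenes at the next 79 control ranks. What an adjoining number means is not given in the sources used here. Unigene27177, Unigene27178, Unigene27179 and Unigene27180 summed to 15.1% in control and 12.5% after TnBP, keeping 75.9% to 92.5% each. All 4 were highest in control 1 and lowest in control 2. Unigene34690 and Unigene34691 kept 54.3% and 52.3%, although control 1 was the lowest library for the former and the highest for the latter.

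Unigene6630 to Unigene6634 formed a run of 5 that summed to 2.34% in control and 1.68% after TnBP. All 5 were highest in control 3. They did not move alike in share. Unigene6631, 432 bases, went from 0.155% ± 0.0105 to 0.207% ± 0.0073 (SD, n = 3). Unigene6632, 371 bases, went from 0.281% ± 0.0445 to 0.185% ± 0.00735, and Unigene6633, 784 bases, from 0.392% ± 0.0732 to 0.239% ± 0.0360. Unigene6634, the largest of them, kept 68.7%, and Unigene6630, 1210 bases, kept 76.3% with overlapping groups. With TMM all 5 were called lower, Unigene6631 with a log2 fold change of -0.35 and the others with -1.48 to -1.17. All 5 had expected counts that were not whole numbers in all 6 libraries, as when an estimate divides reads between contigs, so their separate values are uncertain. Unigene3171, Unigene3173, Unigene3174 and Unigene3177 also had such counts in all 6 libraries, were all highest in control 2 and kept 37.9% to 50.7%.

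Divided counts were common among the dominant contigs. Expected counts departed from whole numbers by more than 0.005 in all 6 libraries for 31 of the 79, in some libraries for 12 and in none for 36. Over all 35181 contigs present in every library, 13.8% had such counts in all 6. At the next 79 control ranks the number was 38. CL821.Contig2, Unigene27178, Unigene34690 and Unigene27179, the first 4, had whole counts throughout, and CL136.Contig1 was the first with divided counts.

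There were 5 clusters that held 2 of the 79 contigs each. CL821 summed to 9.70% ± 0.499 in control and 4.71% ± 0.143 after TnBP (SD, n = 3), with Contig2 at 91.7% to 93.9% of the sum in control and 91.6% to 92.0% after TnBP. CL3185 summed to 3.97% ± 0.0847 and 3.26% ± 0.0848. Its members were CL3185.Contig1 and the 206-base CL3185.Contig2, the shortest of the 79, which took 0.663%, 0.669% and 0.633% in control and 0.376%, 0.364% and 0.528% after TnBP. TnBP 3 was high for the short contig and lowest for the long one.

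CL1252 and CL3228 showed unlike balances within a pair. In CL1252, Contig1 held 72.8% to 76.0% of the sum in control and 64.5% to 67.9% after TnBP, without overlap, since Contig2 kept nearly all of its share and Contig1 kept 65.1%. CL3228.Contig1, 2913 bases, took 0.342%, 0.329% and 0.488% in control, while CL3228.Contig2, 2587 bases, took 0.389%, 0.431% and 0.225%. Control 3 was thus high for one and low for the other. Their sum varied little, at 0.731%, 0.761% and 0.713%, a coefficient of variation of 3.27% against 22.9% and 31.3% for the contigs. After TnBP the sum was 0.440%, 0.484% and 0.483%, below all control values. The contigs of both pairs, CL1252 and CL3228, had divided counts in all 6 libraries. How a sum splits within either pair is therefore uncertain.

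CL2523.Contig1 and CL2523.Contig3, of 985 and 975 bases, took similar control shares, 0.234% ± 0.0204 and 0.246% ± 0.0489 (SD, n = 3). Under TnBP they stood at 0.160% ± 0.00713 and 0.106% ± 0.00598, so Contig1 kept 68.6% and Contig3 43.0%. Both had divided counts in all 6 libraries, so their separate values are uncertain. Control 3 was the high library for both, at 0.256% and 0.302%. The whole cluster of 4 contigs summed to 0.557% ± 0.0815 in control and 0.328% ± 0.0139 after TnBP.

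**Figure D4:**
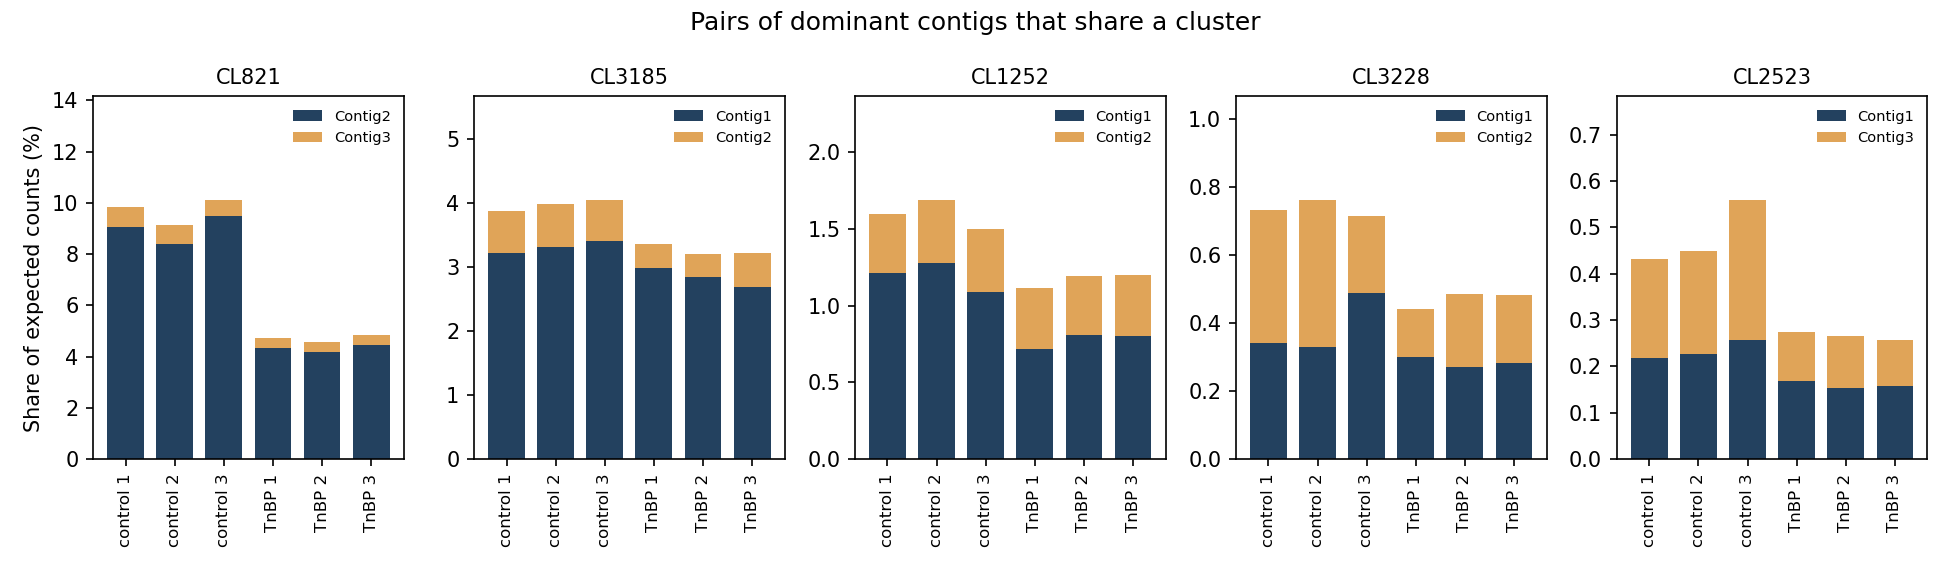
Stacked bars give the share of expected counts (%, each panel with its own axis from 0) of the 2 dominant contigs of clusters CL821, CL3185, CL1252, CL3228 and CL2523 in the 6 libraries. In CL3228 the dividing line between the contigs shifts in control 3 while the height stays between 0.713% and 0.761% in control.

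Levels per length ordered the 79 differently. They ran from 206 to 9698 bases, with 23 under 1000 and 19 of at least 3000, and their median of 1598 compared with 390 over all contigs and 1732 at the next 79 ranks. Contigs under 1000 bases had control FPKM of 1977 to 119312, those from 1000 to under 3000 bases 443 to 46888, and those of at least 3000 bases 125 to 5888. The rule acts on counts, so a shorter contig needs a higher FPKM to be chosen, and the lower ends of these ranges follow in part from the choice. Of the 23 contigs under 1000 bases, 22 ranked higher by FPKM than by share in control, the exception being CL821.Contig2, at rank 2 by FPKM. Dividing by length by itself moves short contigs up. Unigene8741, 228 bases, stood at rank 36 by share and 10 by FPKM, with 16364 ± 2184 in control and 7218 ± 1355 after TnBP (SD, n = 3), and CL3185.Contig2 stood at 22 and 6. CL2312.Contig1, 7196 bases, stood at rank 45 by share but 149 by FPKM, with 355 ± 46.0 and 163 ± 3.46. By FPKM 58 of the 79 were among the first 79 control contigs.

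The middle lengths kept the most. Contigs from 1000 to under 3000 bases, 37 in number, kept a median of 81.1% of their control share and summed to 33.5% in control and 29.5% after TnBP. The 23 shorter contigs summed to 28.6% and 17.4%, and the 19 longer ones to 7.52% and 4.19%. Higher mean shares after TnBP were seen for 9, 3 and 2 contigs of these classes. The differences between length classes were not tested.

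For most of the 79, pools of 1 group differed by far more than counting error. The coefficient of variation was above its counting value for all 79 in control, with a median ratio of 15.3, and for 78 under TnBP, with a median ratio of 9.51. CL1059.Contig1 in control, at 1.08% against 1.05%, lay close to it, and Unigene46102 under TnBP, at 0.839% against 1.04%, lay below it. The coefficient of variation of a contig's share had a median of 7.97% over the 79 in control and 5.59% under TnBP, and it was larger in control for 55 contigs and larger under TnBP for 24. At the next 79 ranks the medians were 7.48% and 5.26%, with 52 larger in control. Control 1 was the lowest control library for 42 of the 79 and control 2 the highest for 41. The summed share of the 79 went the other way, highest in control 1 at 70.3% and lowest in control 2 at 68.4%. Spread and length had a Spearman's rho of -0.27 in control and -0.15 under TnBP, which describes 79 contigs measured in the same libraries.

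The widest spreads belonged to a few named contigs. In control CL3228.Contig2 varied by 31.3%, CL3228.Contig1 by 22.9%, Unigene6630 by 22.5%, Unigene44085 by 20.2% and CL2523.Contig3 by 19.9%. Except for Unigene44085, all of these had divided counts in all 6 libraries. Under TnBP, after Unigene32747 with 145%, came CL3185.Contig2 with 21.6%, CL3228.Contig2 with 21.0%, Unigene8741 with 18.8% and Unigene6630 with 15.5%. Of these, Unigene32747, CL3185.Contig2 and Unigene8741 had whole counts in all 6 libraries, and CL3228.Contig2 and Unigene6630 had divided counts in all 6. Unigene8741 took 0.283%, 0.324% and 0.370% in control and 0.173%, 0.135% and 0.122% after TnBP, and Unigene6630 took 0.146%, 0.137% and 0.204% against 0.145%, 0.118% and 0.108%. At the other end CL1059.Contig1 varied by 1.08% in control and Unigene47463, 1116 bases, by 1.87%.

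**Figure D5:**
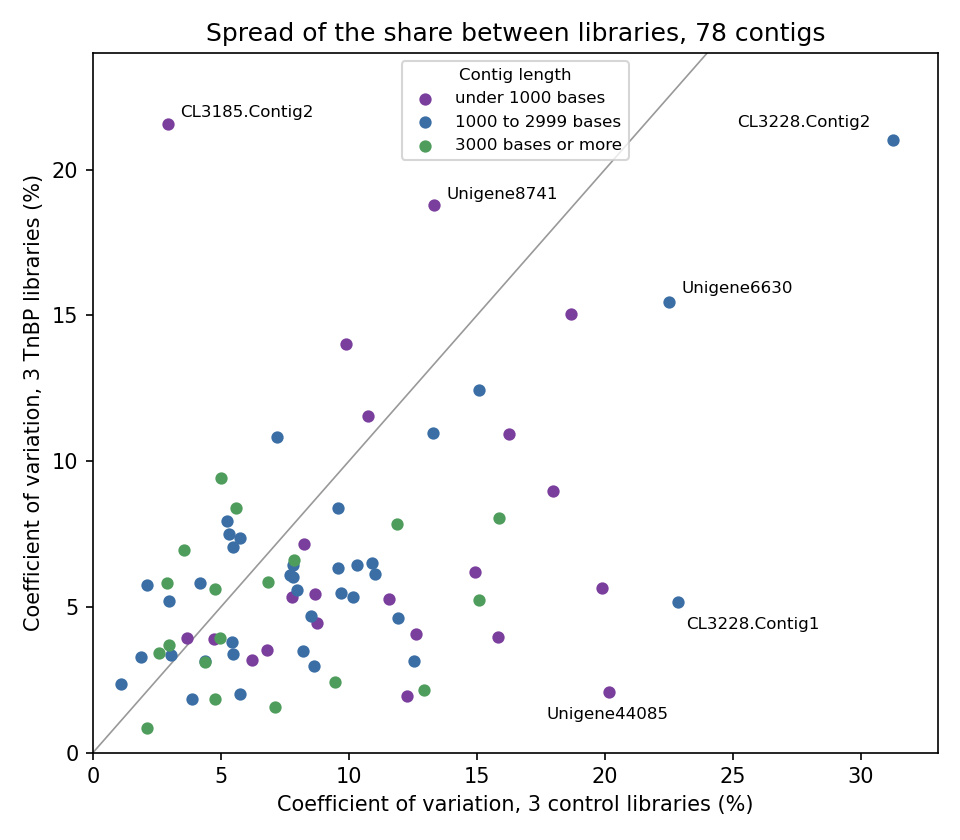
Coefficient of variation of the share over the 3 control libraries (horizontal, %) and the 3 TnBP libraries (vertical, %) for 78 contigs, coloured by length, with equal spread on the line; Unigene32747 (11.1% and 145%) lies outside the axes. Below the line are the contigs that varied more in control, among them CL3228.Contig2 and Unigene44085.

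The remaining dominant contigs were named after their values had been seen. CL1357.Contig2, 1139 bases, kept 85.4% of 0.436%, Unigene24167, 1588 bases, 72.8% of 0.405% and CL228.Contig1, 3100 bases, 55.8% of 0.388%. Unigene41399, 3933 bases, kept 60.5% of 0.367%, Unigene59, 1650 bases, 61.4% of 0.288% and Unigene4046, 2153 bases, 81.1% of 0.285%. CL1806.Contig2, 1111 bases, kept 43.1% of 0.270%, CL3644.Contig2, 718 bases, 70.0% of 0.269% and Unigene48039, 2460 bases, 67.4% of 0.167%. For all 9 the TnBP libraries lay below the control libraries, if only just for CL1357.Contig2, whose highest TnBP library held 0.384% and lowest control library 0.385%.

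Shorter or fainter contigs of the same kind included Unigene47462, 1117 bases, which kept 64.2% of 0.136%, its neighbour Unigene47463, which kept 57.6% of 0.138%, and Unigene46099, 1168 bases, which kept 57.8% of 0.111%. Long ones were Unigene3216, Unigene4231 and Unigene11322, of 3112, 4763 and 4059 bases, which kept 46.1%, 53.4% and 51.4%. CL168.Contig1 and CL3107.Contig3, of 3695 and 5733 bases, kept 53.3% and 53.0%, and both were high in control 2, at 0.173% each. CL3317.Contig1, Unigene8499 and Unigene4058, of 5215, 3466 and 5019 bases, kept 67.1%, 63.5% and 44.8%. All 11 dropped under 0.1% after TnBP.

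Unigene11320, Unigene41687 and Unigene7741, of 940, 1813 and 1835 bases, had higher mean shares, at 1.33, 1.28 and 1.44 times their control values. Their TMM-scaled log2 fold changes were -0.36, -0.42 and -0.25, and the library-total values 0.42, 0.37 and 0.53, so the fitted direction depends on whether a contig is set against the typical contig or against the whole library. The TMM value of Unigene7741 was not called (edgeR adjusted p = 0.063), though it was without control replicate 2, at -0.34. The lower call of Unigene11320 was lost without TnBP replicate 3, at -0.32, and with no count filter, at -0.28. Unigene41687 overlapped between groups, with 0.110%, 0.111% and 0.138% in control and 0.171%, 0.152% and 0.138% after TnBP. Unigene11320 and its near neighbour in number, Unigene11322, went in opposite directions in share.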

How the data were processed

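RNA-seq of pooled earthworm intestines gave 1 table per library with contig length, expected count and FPKM, per the file headers. Expected counts were used as deposited, without normalization. FPKM, deposited by the authors, is relative to contig length and depth. The submitters' processing notes list RSEM and Bowtie 0.12.2 with no settings, and also a mouse build, although each identifier names Eisenia fetida. For the assembler, read filters and strand the sources used here give nothing.

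Contigs absent from a table were set to 0, and a share is a contig's expected count over the library's sum. Rounded counts of all contigs entered edgeR 4.0.16 in R 4.3.3 (filterByExpr, TMM, quasi-likelihood test on 6 libraries, Benjamini-Hochberg adjustment over 25353 contigs). The fit was first run on simulated counts with few changed contigs, balanced between directions. That run did not test TMM where shares shift as widely as here. All 79 contigs passed the filter. A log2 fold change compares TnBP with control, and its standard error was derived from the F statistic. TMM factors were 0.744 to 0.786 in control and 1.27 to 1.34 under TnBP. DESeq2 1.42.0 and limma 3.58.1 served as alternatives. Between libraries of a group, the chi-square per degree of freedom was 2.58 to 3.24, so none was a copy.

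The contigs and rules were chosen with earlier results of these data known. The rule named the 25 contigs with the largest control share, the 8 steepest changes in each direction, the 5 most variable per group, the 5 longest, the 5 shortest, 3 on each side of the threshold and those sharing a cluster. Contigs outside it were named after their values had been seen.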

Additional observations from a re-analysis of the deposited data

How the results depend on the processing

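Over 16 fits, 55 of the 79 contigs kept their direction and call in every one. The numbers called lower stayed within 1.5 times of 70 in every fit; 6 called higher became 13 with library totals and in each of the 3 limma fits on log2 FPKM (pseudocounts of 1 and 0.1, and 1 with no filter). With library totals, and then with limma at pseudocounts of 1, 0.1 and 1 unfiltered, the log2 fold change reversed to 0.42, 0.42, 0.42 and 0.42 for Unigene11320, 0.43, 0.43, 0.43 and 0.43 for Unigene6631, 0.37, 0.36, 0.37 and 0.36 for Unigene41687, 0.53, 0.54, 0.54 and 0.54 for Unigene7741, 0.26, 0.25, 0.25 and 0.25 for Unigene25953, and 0.044, 0.039, 0.039 and 0.039 for CL1059.Contig1. These scales carry no TMM factor, which is the difference by construction. A threshold of 0.05% gave 144 contigs, summed shares of 74.1% and 56.9%, and 104 contigs keeping it; 0.2% gave 66.0%, 47.9% and 37; shares of FPKM gave 68.4% and 50.1%. Further choices were added after seeing the data. The 88 contigs chosen by TnBP share took 67.8% and 56.5%, with 53 called lower and 25 higher. The 83 contigs chosen on both groups took 55.5% under TnBP, with 65 called lower and 14 higher. The calls for both sets come from the TMM fit, in which 24.5% of all tested contigs were called lower and 24.1% higher. The median coefficient of variation under TnBP was 6.71% in TMM-scaled CPM. Leaving out 1 library in turn gave 69 to 72 called lower, 4 to 6 called higher, summed shares of 69.3% to 70.3% in control and 50.9% to 52.4% under TnBP, and median coefficients of variation of 5.72% to 8.75% in control and 3.76% to 5.20% under TnBP. Without TnBP replicate 2 all 10 first contigs stayed in the first 10.

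Deviations of same-numbered libraries had correlations of -0.0032, 0.045 and -0.016, and those of differently numbered libraries ran from -0.030 to 0.032. Whether same-numbered libraries shared a container or a batch was not tested. With the replicate block 70 were called lower and 5 higher. Depth limits only Unigene32747 under TnBP.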

Other observations

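Contigs outside the 79 that reached 0.1% under TnBP numbered 28, and together they went from 1.19% ± 0.0403 of the control counts to 6.72% ± 0.247 after TnBP (SD, n = 3). They were chosen by their TnBP values, so this is a description, and those named were picked after their values had been seen. Unigene16059, 1197 bases, took 0.0989%, 0.107% and 0.0871% in control, just under the threshold on average, and 1.22%, 1.33% and 1.24% after TnBP, moving from rank 83 to 14. Unigene47055, 2134 bases, moved from rank 112 to 16, with 0.0656% ± 0.00689 in control and 1.09% ± 0.0601 after TnBP. Unigene34718, 2235 bases, had the largest ratio of the 28, 70.7, with 0.00593%, 0.00594% and 0.0067% in control and 0.421%, 0.462% and 0.430% after TnBP. It went from rank 895 to 30.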
